A study of Mus musculus with 70 samples.

Results

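miR-6983 is a miRNA whose precursor lies in an intron of Csf1r, the gene of the receptor through which microglia and other macrophages receive the survival signals CSF1 and IL-34. Both of its mature arms, mmu-miR-6983-3p and mmu-miR-6983-5p, were taken by name, and they are 2 of the 1882 small RNA features kept from the deposited table. The miRNA was selected on its counts, which are high in CD45+ cells and low in CD45- cells, so its level in microglia against other brain cells is given here as a description and is not tested. Small RNA was sequenced from whole brains of WT C57BL/6 mice of both sexes aged 6 days (P6), 15 days (P15) or 8 weeks (8W), with no other treatment or allele. From each brain the CD45+ cells caught by immunopanning (called microglia below) and the CD45- cells that were left (bulk) were sequenced as separate libraries. The values below come from 34 mice, 10 at P6 (4 female, 6 male) and 12 at each of the other ages (6 female, 6 male), hence 68 libraries.

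A miRNA that sits in an intron is usually copied as part of its host gene's transcript and then cut out as a hairpin. The hairpin yields a 5p and a 3p strand, of which one is often kept at a higher level than the other. Some hairpins reach the end of a short intron, so that splicing and not the Drosha enzyme makes that end. miRNAs repress messages that pair with bases 2 to 8 of the mature strand, the seed. CD45 marks all nucleated blood-derived cells, so a CD45+ fraction of brain can hold border macrophages and other leukocytes beside microglia, and Csf1r is used by macrophages and monocytes as well.

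The miRNAs whose profiles over the samples lay nearest to that of miR-6983-3p are shown first, as they serve as the comparison below. They are the arms of miR-223 and miR-142a, long-known miRNAs of blood and myeloid cells, and miR-511-3p, which comes from an intron of the macrophage mannose receptor gene Mrc1. Mature sequences are from RefSeq (GRCm38.p6), 5′ to 3′, with the seed in capitals. On the plus strand, miR-223-3p lies at chrX:96242884-96242905 and miR-223-5p at chrX:96242842-96242864, miR-142a-3p at chr11:87756903-87756925 and miR-142a-5p at chr11:87756867-87756887, and miR-511-3p at chr2:14261051-14261072.
miR-223-3p: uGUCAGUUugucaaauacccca
miR-223-5p: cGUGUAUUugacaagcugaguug
miR-142a-3p: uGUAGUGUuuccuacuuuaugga
miR-511-3p: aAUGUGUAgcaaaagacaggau
miR-142a-5p: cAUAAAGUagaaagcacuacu
The 5 strands carry 5 different seeds.

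In the annotation of genome build GRCm38 the precursor Mir6983 covers chr18:61117468-61117531 on the plus strand, 64 bases. It lies in Csf1r (chr18:61100598-61132149, plus strand), in intron 9 of the 22-exon transcript Csf1r-201. That intron spans chr18:61117413-61117531 and is 119 bases long. The precursor starts after the first 55 bases of the intron and ends with its last base, leaving 0 bases before the next exon. The same intron is present in 3 of the 6 annotated Csf1r transcripts.

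Library depth (counts of the features kept) ran from 1678034 to 4066435 counts in P6 microglia, 3220957 to 5420071 in P15 microglia and 4244639 to 5982922 in 8W microglia. Bulk libraries held between 2795957 and 8747394 counts. The CD45+ fraction carried the miRNAs of myeloid cells: the summed level of 4 myeloid markers (both arms of miR-142a and miR-223) had a median of 14904 CPM (counts per 1000000 counts of the library) in P6, 24995 in P15 and 17308 in 8W microglia, against 127, 326 and 219 CPM in bulk. miRNAs listed as markers of other cells were counted there too. The 6 neuronal markers summed to medians of 27095, 25818 and 23345 CPM in microglia and 83468, 108003 and 148735 CPM in bulk. Most of this was miR-124-3p, with medians of 22975, 19638 and 18255 CPM in microglia, and the source of these counts was not tested. The 4 erythroid markers summed to 15215, 45465 and 23959 CPM in microglia against 1976, 5079 and 4414 CPM in bulk, and the 3 oligodendrocyte markers to 759, 1456 and 1650 CPM against 1896, 17458 and 25957 CPM. The 4 mural and fibroblast markers had medians of 10370, 7824 and 9886 CPM in microglia, near their 8450, 10845 and 11962 CPM in bulk, and the 2 endothelial markers 2192, 2628 and 3417 CPM against 27402, 33338 and 16616 CPM.

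In microglia miR-6983-3p was counted in every library. The counts at P6 had a lowest value of 53, a median of 144 and a highest of 254. At P15 they were 196, 316 and 529, and at 8W 206, 265.5 and 376. Relative to depth the mean level was 49.9 ± 19.9 CPM (SD, n = 10) at P6, 78.9 ± 23.9 CPM (SD, n = 12) at P15 and 55.7 ± 8.92 CPM (SD, n = 12) at 8W. The order of the means was thus P15, 8W and P6, but the libraries of neighbouring ages overlapped, since P6 reached 98.4 CPM, P15 began at 53.4 CPM and 8W ran from 44.7 to 71.5 CPM. Among the 1072 features that passed a filter on low counts, the mean of miR-6983-3p ranked 311 at P6, 263 at P15 and 262 at 8W. It was thus more abundant than most features, with 71.0%, 75.5% and 75.6% of them lower at these ages. The median of all features was 7.08, 5.84 and 4.19 CPM. For scale, miR-142a-3p averaged 14366, 19684 and 12709 CPM in the same libraries.

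The 5p arm was the scarcer strand. Its counts in microglia were 1, 18 and 30 (lowest, median, highest) at P6, 20, 41 and 68 at P15, and 26, 32.5 and 51 at 8W. The mean levels were 5.94 ± 2.64 CPM (SD, n = 10), 9.97 ± 3.29 CPM (SD, n = 12) and 7.21 ± 1.5 CPM (SD, n = 12). The order of the ages was that of the 3p arm, and again the groups overlapped. At the median count, counting error alone gives a coefficient of variation of 23.6%, 15.6% and 17.5% for the 5p arm, against 8.33%, 5.63% and 6.14% for the 3p arm. The single count came from the shallowest library, that of P6 female mouse 3, where the 3p arm had 53 counts.

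In bulk cells both arms were close to the limit of detection. miR-6983-3p had 19 counts in all 10 P6 libraries together, 39 counts in the 12 P15 libraries and 18 counts in the 12 libraries at 8W. It was at 0 in 5, 5 and 4 of these libraries. The highest single bulk values were 1.81 CPM at P6, 2.51 CPM at P15 and 0.833 CPM at 8W. miR-6983-5p had 0 counts at P6, 1 at P15 and 1 at 8W. The 0 counts of P6 allow up to 0.0415 CPM over the group (3 counts, counting error only). The bulk P15 libraries with 3p counts were unequally spread over the sexes, with 31 of the 39 counts in the 6 female libraries. The female libraries were also deeper, with 31530315 counts in sum against 20410336 in males. Relative to depth, the summed 3p counts came to 0.983 CPM in females and 0.392 CPM in males. In limma's fit the male minus female difference there was -1.58 on the log2 scale (95% interval -3.13 to -0.036, adjusted p = 1 against a fold change of 2).

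**Figure D1:**
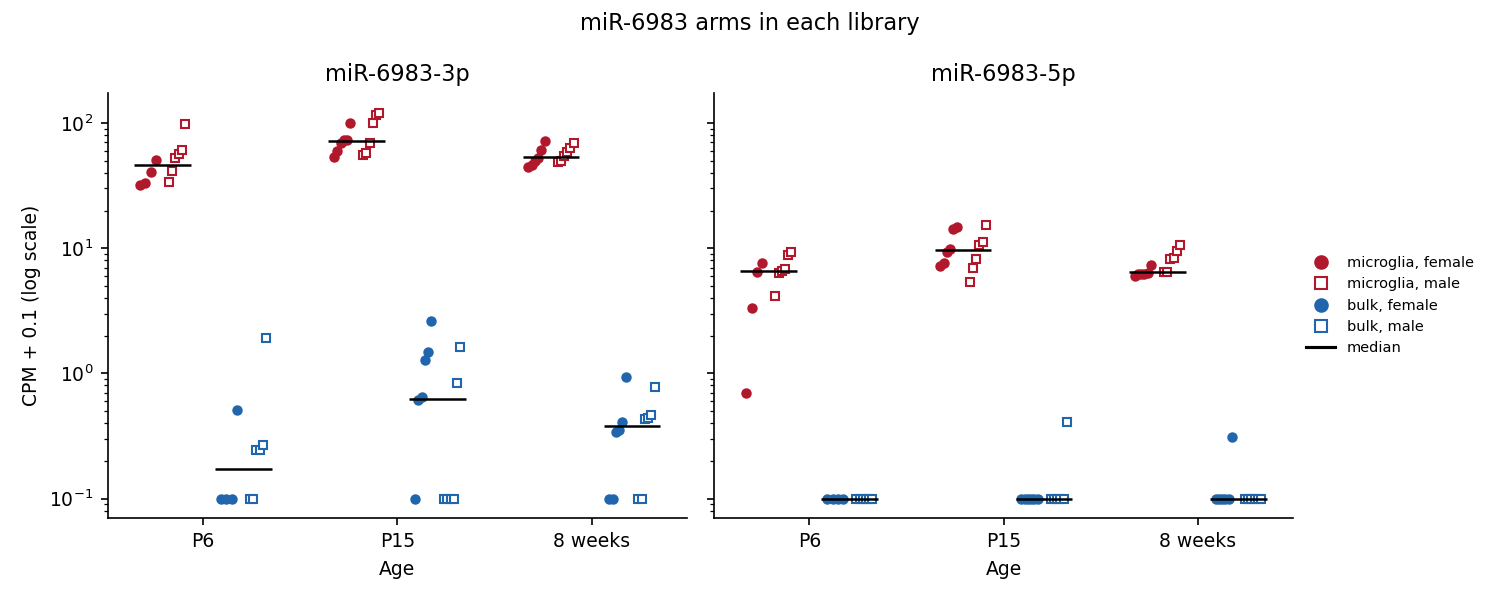
Level of miR-6983-3p (left) and miR-6983-5p (right) in each of the 68 libraries, as CPM plus 0.1 on a log axis, by age; red is microglia, blue is bulk, filled circles are females, open squares are males and black lines are medians. Points on the lowest line are libraries with 0 counts, and for both arms the microglial points lie above the bulk points of the same age.

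Microglia were above bulk of the same brain in 10 of 10 mice at P6, 12 of 12 at P15 and 12 of 12 at 8W, for either arm. No bulk library reached the lowest microglial library of its age: the gap for the 3p arm was 31.6 against 1.81 CPM at P6, 53.4 against 2.51 CPM at P15 and 44.7 against 0.833 CPM at 8W. As the miRNA was picked for this contrast, the counts of mice and the gaps say nothing further. The share of all features with such a gap is not given. By another measure, the 2-fold test (limma TREAT), 28.1%, 39.9% and 44.9% of all features were called between the fractions at the respective ages. With 17.4%, 21.3% and 21.2% of all features the call was for a higher level in microglia. The narrowest pair was the 5p arm of P6 female mouse 3, with 1 count in microglia and 0 in bulk, both under the floor of 3 counts. In these bulk samples a smaller number of myeloid cells and a lower content per cell cannot be told apart.

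The size of the contrast was computed from summed counts per summed depth. For miR-6983-3p microglia were 186-fold above bulk at P6 (95% counting interval 119 to 310), 104-fold at P15 (76.1 to 147) and 182-fold at 8W (115 to 307). The P6 figure rests on the bulk library of male mouse 3, which held 13 of the 19 counts; without it the ratio was 530 (243 to 1448). In that library miR-223-3p stood at 15.1 CPM, rank 1 of the 10 P6 bulk libraries, miR-142a-3p at 126 CPM, rank 2, and miR-142a-5p at 17.3 CPM, rank 3. By contrast miR-511-3p had 0 counts there, with up to 1.34 CPM in the others, and miR-223-5p had 0 in all of them. The part of these miRNAs in its 13 counts was not tested. For miR-6983-5p the P6 ratio was at least 147-fold, from the floor of 3 counts over the bulk group. At P15 it was 514 (91.9 to 20349) and at 8W 422 (75.4 to 16726), each from 1 bulk count. In limma's fit, the log2 difference of the 3p arm was 8.16 ± 0.46 (SE) at P6, 7.49 ± 0.39 at P15 and 7.52 ± 0.40 at 8W, ranks 2, 2 and 1 of 1072. The medians of all features in these contrasts were 0.25, 0.28 and -0.10.

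The next question was whether the level in microglia changed as the brain matured, which the choice of the miRNA did not use. After scaling by TMM (a scaling that centres most features between libraries) the mean log2 CPM of miR-6983-3p was 5.38 at P6, 6.21 at P15 and 6.08 at 8W. The fitted difference P15 against P6 was 0.85 ± 0.19 (SE; 95% interval 0.47 to 1.23), a 1.80-fold higher level. Between 8W and P6 it was 0.71 ± 0.19 (0.33 to 1.09), 1.64-fold, and between 8W and P15 -0.14 ± 0.16 (-0.46 to 0.19). The 5p arm had a mean log2 CPM of 2.17, 3.22 and 3.14, and its differences were 0.98 ± 0.21 (0.56 to 1.41), 0.90 ± 0.21 (0.47 to 1.33) and -0.08 ± 0.16 (-0.41 to 0.25) in the same order. The values of the arms stood close to each other in each comparison.

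None of these 6 differences passed the study's test, which asks for a change beyond 2-fold (limma TREAT, adjusted p = 1 for each). By the same test 2.89% of the 1072 features were called between P15 and P6, 16.6% between 8W and P6 and 4.57% between 8W and P15. Against no change, limma's moderated test gave adjusted p = 0.000184 for the 3p arm and 0.00012 for the 5p arm between P15 and P6, and 0.00104 and 0.000259 between 8W and P6. Between 8W and P15 it gave adjusted p = 0.551 and 0.748. This test called many features: 34.1% of all 1072 between P15 and P6 (15.9% as higher at P15), 53.9% between 8W and P6 (23.6% as higher at 8W) and 37.2% between 8W and P15. Leaving out each mouse in turn kept the values for P15 against P6 between 0.80 and 0.94 for the 3p arm and between 0.76 and 1.18 for the 5p arm, with adjusted p of at most 0.000661 and 0.000819.

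These calls turn on how libraries of different ages are put on one scale. With library size alone, the 3p difference of 8W against P6 was 0.27 (moderated test, adjusted p = 0.214) and that of 8W against P15 was -0.46 (adjusted p = 0.0149), a comparison in which 35% of all features were then called lower. The P15 against P6 differences were 0.73 (3p) and 0.85 (5p) with that scaling. Of 39 alternatives, only the myeloid scaling lost their call. With scaling by the myeloid miRNAs miR-142a-3p, miR-142a-5p and miR-223-3p, P15 against P6 was 0.26 (adjusted p = 0.183) and 8W against P6 was 0.29 (adjusted p = 0.117). The 5p arm moved likewise, to 0.38 (adjusted p = 0.242) and 0.47 (adjusted p = 0.13) with the myeloid scaling. The median of all features tested (1072, or 954 in the fit with the myeloid scaling, which used microglial libraries alone) moved with the scaling as well, being -0.01, 0.02, -0.14 and -0.57 for P15 against P6 under TMM, DESeq2 size factors, library size and the myeloid scaling. Measured from that median, miR-6983-3p lay at 0.86, 0.86, 0.86 and 0.82. For 8W against P6 it lay at 0.89, 0.89, 0.90 and 0.82, and for 8W against P15 at -0.04, -0.04, -0.03 and -0.05. A scaling shifts all features of a library alike, so this distance from the median says where the 3p arm stood among all miRNAs, and it stood higher at P15 and 8W than at P6. Against the 3 myeloid miRNAs summed, most of whose counts were miR-142a-3p, it differed less between the ages. The erythroid markers, at 15215, 45465 and 23959 CPM, also had their highest median at P15: 2 of the 4 (miR-451a and miR-486a-5p) were called higher at P15 than at P6 and 0 of 4 between 8W and P6 (limma TREAT). Of the 3 oligodendrocyte markers, at 759, 1456 and 1650 CPM, 1 was called higher at P15 than at P6, miR-219a-2-3p at 1.97 ± 0.22 (SE; adjusted p = 0.00129), and 2 at 8W, miR-219a-2-3p at 1.63 ± 0.22 (adjusted p = 0.0224) and miR-338-3p at 1.85 ± 0.13 (adjusted p = 9.56e-08). Of the 4 mural and fibroblast markers 1 was called lower at P15 than at P6, miR-214-3p at -2.37 ± 0.33 (adjusted p = 0.00209), and 2 at 8W, miR-214-3p at -4.45 ± 0.43 (adjusted p = 3.88e-10) and miR-199a-3p at -2.55 ± 0.12 (adjusted p = 2.28e-17). None of the 6 neuronal, 2 endothelial or 2 border macrophage markers was called by this 2-fold test, which did not call miR-6983 either. Some of them had larger values than the 0.71 of miR-6983-3p for 8W against P6, among them miR-511-3p at -1.39 ± 0.18, miR-511-5p at -1.31 ± 0.21, the neuronal miR-138-5p at 1.31 ± 0.15 and the endothelial miR-126a-3p and miR-126a-5p at 0.95 ± 0.23 and 1.03 ± 0.22. The part of these markers in the age differences of miR-6983 was not tested.

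**Figure D2:**
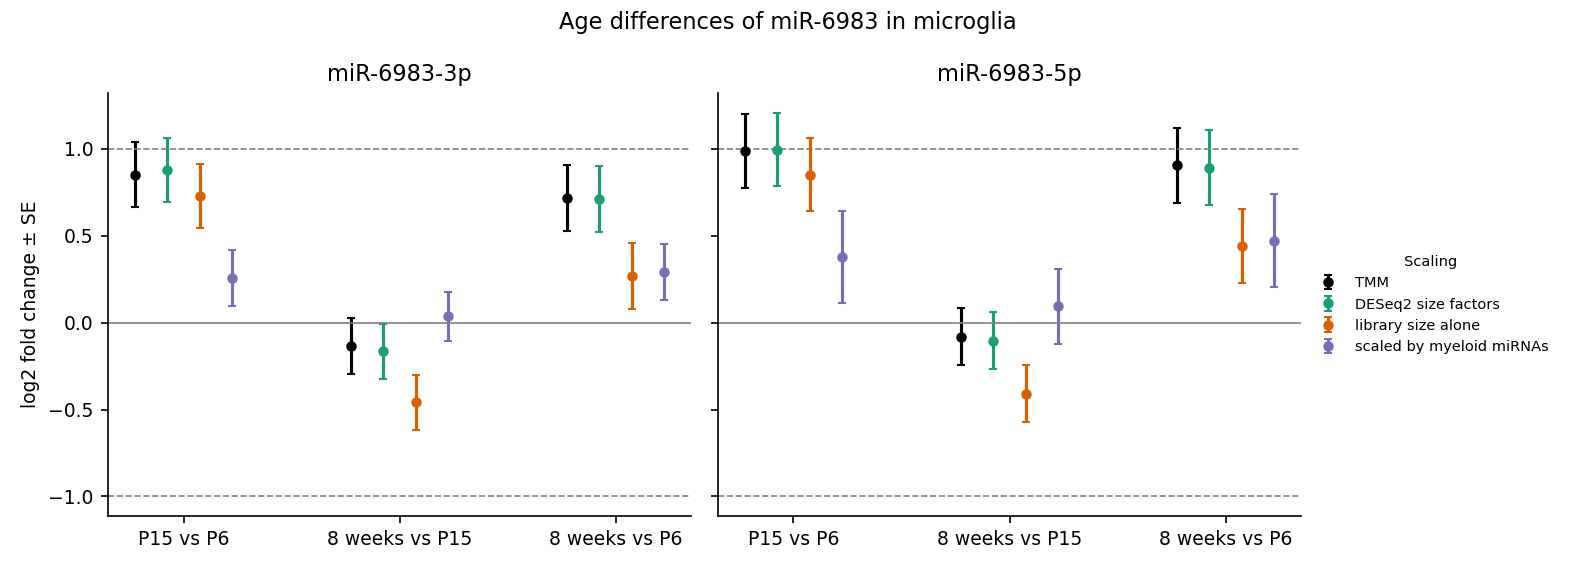
Fitted log2 fold change ± SE between ages in microglia for miR-6983-3p (left) and miR-6983-5p (right) under 4 scalings; dashed lines mark the 2-fold change of the study's test. With TMM the 3p arm lies at 0.85 for P15 against P6, and at 0.26 when libraries are scaled by 3 myeloid miRNAs.

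Ratios to single myeloid miRNAs within a library need no scaling. Per 1000 counts of miR-223-3p there were 19.0 ± 3.58 counts of miR-6983-3p at P6 (SD, n = 10), 34.6 ± 5.66 at P15 (SD, n = 12) and 27.0 ± 4.81 at 8W (SD, n = 12). The P6 libraries ran from 14.6 to 25.7, those of P15 from 21.3 to 41.9 and those of 8W from 18.8 to 36.6, so that P6 and P15 overlapped only at their edges. Per 1000 counts of miR-142a-3p the values were 3.48 ± 0.606, 4.13 ± 1.15 and 4.58 ± 1.40, with wide overlap. Per 1000 counts of miR-142a-5p they were 36.8 ± 9.10, 37.8 ± 14.3 and 27.9 ± 4.78. miR-6983-3p thus stood higher against miR-223-3p at P15 and 8W than at P6, by mean. Against miR-142a-3p the mean was highest at 8W and against miR-142a-5p lowest at 8W, with overlapping libraries in both. No test was run on these ratios.

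**Figure D3:**
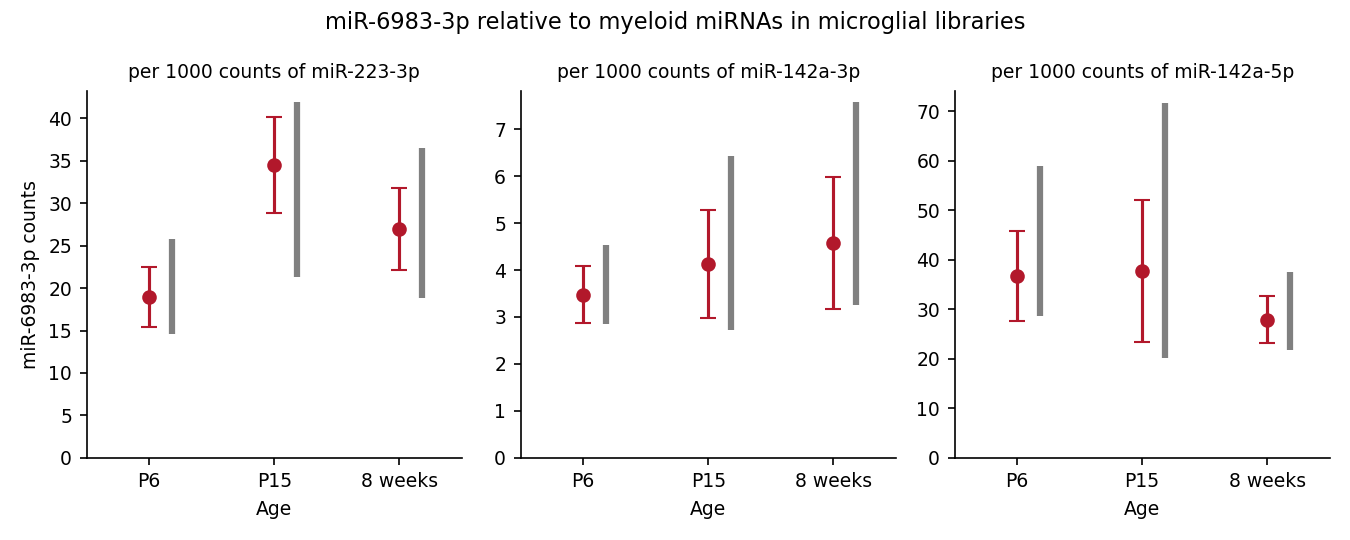
Counts of miR-6983-3p per 1000 counts of miR-223-3p, miR-142a-3p or miR-142a-5p in microglial libraries by age; points with error bars are the mean ± SD over mice and grey bars the range. Against miR-223-3p the mean is 19.0 at P6 and 34.6 at P15, and against miR-142a-3p 3.48 and 4.13.

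The few bulk counts can be set against the same miRNAs. In bulk, summed over libraries, there were 28.8 counts of miR-6983-3p per 1000 of miR-223-3p at P6 (95% interval 17.2 to 45.4), 47.9 at P15 (33.8 to 66) and 19.7 at 8W (11.6 to 31.2). The like sums in microglia were 19.3, 34.4 and 26.5, which are given with no test. Without P6 male bulk library 3 the P6 value in bulk was 10.9 (3.98 to 23.9). Against miR-142a-3p bulk held 2.44 (1.47 to 3.82), 2.54 (1.81 to 3.47) and 1.71 (1.01 to 2.71) per 1000, and microglia 3.51, 4.01 and 4.40. Without the same library the P6 value was 0.872 (0.32 to 1.90). Against miR-142a-5p bulk held 17.7 (10.6 to 27.7), 17.5 (12.4 to 24.0) and 11.5 (6.82 to 18.3) per 1000, and microglia 36.3, 34.9 and 27.5. The 17.7 also leans on that P6 library, which held 13 of the 19 counts of miR-6983-3p but 124 of the 1075 counts of miR-142a-5p. These intervals cover counting error of the pooled counts and not the spread between mice. Single bulk libraries ran from 0 to 120 (P6), 129 (P15) and 65.6 (8W) per 1000 of miR-223-3p, and from 0 to 105, 76.9 and 26.3 per 1000 of miR-142a-5p, so that at each age they overlapped the microglial libraries.

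Sex made no difference that passed the test. In P6 microglia the 4 female libraries had 50.4, 40.8, 31.6 and 33.4 CPM of miR-6983-3p, and the 6 male libraries a lowest value of 33.8, a median of 54.2 and a highest of 98.4 CPM. The lower female libraries lay below the male range and the others inside it. The fitted difference (male minus female) was 0.36 (95% interval -0.24 to 0.96) at P6, 0.16 (-0.29 to 0.61) at P15 and 0.01 (-0.46 to 0.47) at 8W. For the 5p arm it was 0.67 (-0.04 to 1.39), -0.23 (-0.68 to 0.23) and 0.26 (-0.21 to 0.74). Without P6 female mouse 3, whose library held 1 count of the 5p arm, the P6 value was 0.21. The age difference (8W against P6) was -0.35 (-1.11 to 0.41) in males relative to females for the 3p arm and -0.41 (-1.27 to 0.45) for the 5p arm. Each of these 8 comparisons had an adjusted p of 1 (limma TREAT), and 0% of all features were called between the sexes at any age.

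The share of the 5p strand among the counts of both arms was much the same at each age. Over the summed counts of microglia it was 11.1% at P6 (95% exact interval 9.65 to 12.7, counting error only), 11.2% at P15 (10.3 to 12.2) and 11.4% at 8W (10.4 to 12.5). Single libraries ran from 1.85% to 18.5% at P6, from 8% to 21% at P15 and from 7.84% to 16.0% at 8W. The mean log2 ratio of 3p to 5p counts was 3.17 ± 0.86 (SD, n = 10), 2.98 ± 0.43 (SD, n = 12) and 2.94 ± 0.30 (SD, n = 12).
The differences in this log2 ratio were -0.19 between P15 and P6 (95% interval -0.83 to 0.46), -0.04 between 8W and P15 (-0.36 to 0.27) and -0.23 between 8W and P6 (-0.85 to 0.40), with an adjusted p of 0.789 each in a two-sided permutation test over mice. The intervals leave room for a change of the arm ratio of up to 1 log2 unit against P6 and of a smaller size between P15 and 8W. Between the sexes the share pointed in opposite ways at the later ages, with 12.6% in females (11.3 to 14.0) and 9.79% in males (8.56 to 11.1) at P15, and 10.3% (8.93 to 11.9) and 12.5% (11 to 14.0) at 8W. This was not tested over mice.

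**Figure D4:**
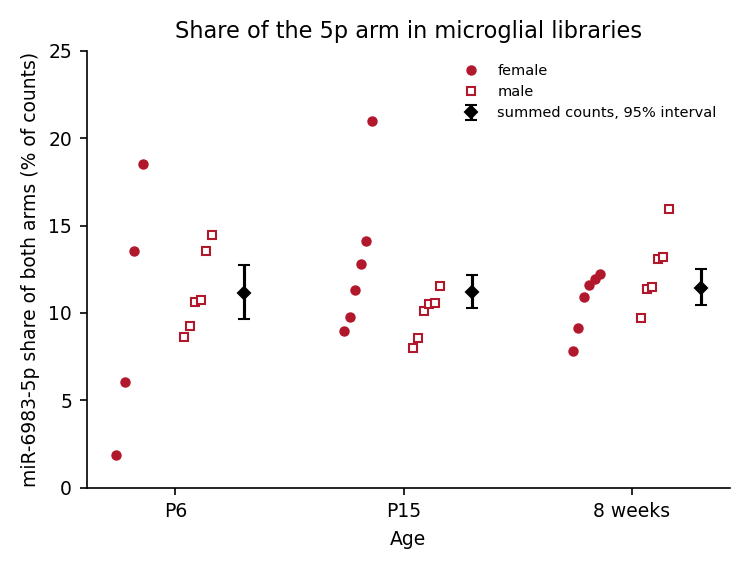
Share of miR-6983-5p among the counts of both arms in each microglial library, in percent, by age; filled circles are females, open squares are males, and black diamonds are the summed counts with their 95% exact interval. The summed shares lie at 11.1%, 11.2% and 11.4%, and the lowest point is the P6 library with 1 count of the 5p arm.

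Both arms come from 1 hairpin, and their levels were compared over mice within each age. Pearson's r of log2 CPM was 0.52 at P6 (n = 10; Spearman's rho 0.49), 0.55 at P15 (n = 12; rho 0.51) and 0.30 at 8W (n = 12; rho 0.26). Adjusted over the 3 ages, the permutation p-values were 0.181, 0.181 and 0.346 for r, and 0.229, 0.229 and 0.415 for rho. Without the 2 libraries farthest from the median of the 3p arm, r was 0.11, 0.44 and 0.22. Taking out such libraries narrows the range of the 3p arm, which by itself tends to lower r. No relation between the arms over mice was thus detectable at this depth.

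Over the means of the 6 groups (3 ages in each fraction), the profile of miR-6983-3p lay closest to that of miR-223-3p, with a root mean square difference of 0.353 on the log2 scale after each profile was centred on its own mean. miR-223-5p (0.435), miR-142a-3p (0.599), miR-511-3p (0.692) and miR-142a-5p (0.719) came next. The median over all features was 3.78. The partner arm, miR-6983-5p, was the feature in position 7 at 0.852, and its profile lay closest to miR-142a-5p (0.4). The near-absence of 5p counts in bulk sets the bulk end of that profile. The same limit holds for miR-223-5p, with 6 bulk counts in all, and in part for miR-6983-3p itself, with 76. These distances are dominated by the contrast between the fractions and carry no test.

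**Figure D5:**
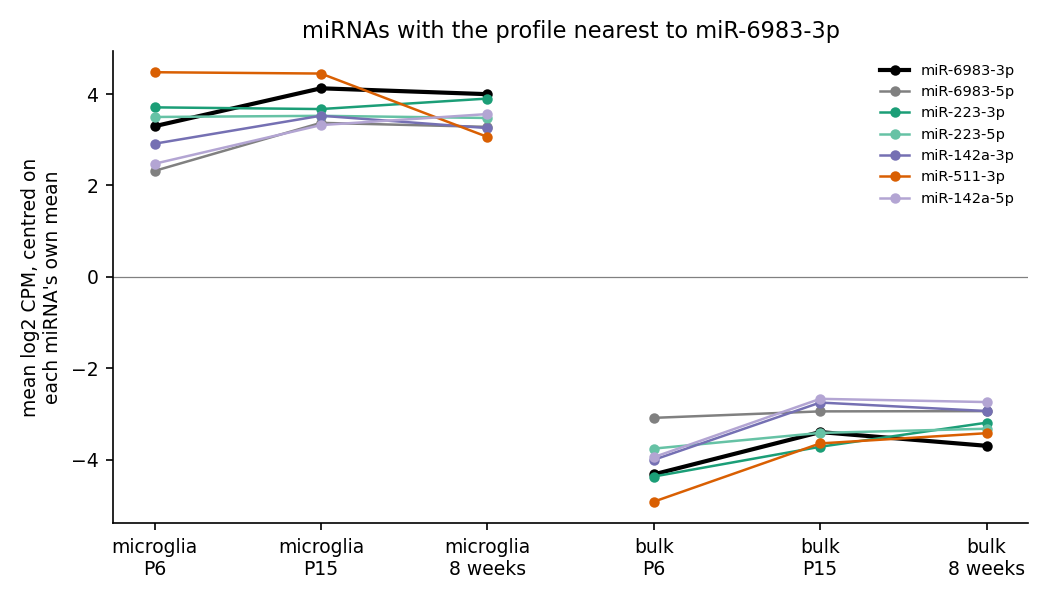
Mean log2 CPM (TMM scaled) of both arms of miR-6983 and of the 5 miRNAs nearest to miR-6983-3p in the 6 groups of fraction and age, each line centred on its own mean. All 7 lines are high in microglia and low in bulk, and in microglia the miR-511-3p line lies lower at 8 weeks than at P6, by 1.39 in the fit.

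The named neighbours differed in how they went with age. In microglia the difference of P15 against P6 was -0.02 ± 0.11 (SE) for miR-223-3p, -0.0033 ± 0.17 for miR-223-5p, 0.65 ± 0.13 for miR-142a-3p, 0.90 ± 0.16 for miR-142a-5p and 0.00068 ± 0.17 for miR-511-3p, beside 0.85 ± 0.19 for miR-6983-3p. The difference of 8W against P6 was 0.20 ± 0.11 (SE) for miR-223-3p, -0.08 ± 0.17 for miR-223-5p, 0.38 ± 0.13 for miR-142a-3p, 1.14 ± 0.16 for miR-142a-5p and -1.39 ± 0.18 for miR-511-3p, beside 0.71 ± 0.19 for miR-6983-3p. None of these passed the 2-fold test (limma TREAT, adjusted p = 0.0921 for miR-511-3p and 0.661 for miR-142a-5p at 8W against P6, and 1 for the others). miR-511-3p, whose host Mrc1 is high in border macrophages, averaged 190 ± 65.4 CPM in P6, 170 ± 54.1 CPM in P15 and 49.9 ± 10.3 CPM in 8W microglia. At 8W it was therefore near the 55.7 CPM of miR-6983-3p, and at P6 above its 49.9 CPM. As ligation and amplification favour some sequences, such levels compare 2 strands only roughly.

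Among 58 genes known for their use in microglia and macrophages, 3 hosted a tested miRNA in an intron on the same strand, with 6 mature strands in all: Csf1r with both arms of miR-6983, Mrc1 with both arms of miR-511 and Evl, an actin regulator of blood and brain cells, with both arms of miR-342. Of the 4 strands from Mrc1 and Evl, 1 was called between 8W and P6, against 16.6% of all features. This was miR-342-3p, which rose by 1.33 ± 0.13 on the log2 scale (SE; limma TREAT, adjusted p = 0.0355), from 5098 ± 1316 CPM (SD, n = 10) to 8846 ± 1341 CPM (SD, n = 12). The call was lost with library size alone (0.87, adjusted p = 1), with the myeloid scaling (0.90, adjusted p = 1), with DESeq2 (1.31, adjusted p = 0.152) and without any of 4 single 8W mice: females 2 and 3 (1.29 and 1.29) and males 2 and 6 (1.31 and 1.31). Its partner miR-342-5p had a difference of -0.08 ± 0.12, beside 1.33 for its partner; the difference between the arms was not tested. The arms of miR-6983 (0.71 and 0.90) and those of miR-511 (-1.39 and -1.31) had like values. None of the 4 strands was called between P15 and P6 or between 8W and P15.

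The position of the hairpin at the end of its intron was shared with many features. Precursors whose 3′ end alone coincided with the 3′ end of an intron, within 3 bases, gave 372 names in the table, of which 103 passed the filter. This set was drawn up after the position of Mir6983 had been seen. Most were scarce, with a median of 0.742 CPM over the microglial libraries. miR-6983-3p, at 62.2 CPM, was the most abundant of the 103 there, and miR-6983-5p, at 7.81 CPM, was in position 4. Their pooled fitted log2 differences between microglia and bulk, 7.72 and 6.19 (the latter set by the prior count, as bulk was nearly all 0), were the highest of the set. Next was 4.42 for miR-7115-5p from Arrb2, a beta-arrestin gene, and the set median was 0.74. The miRNA was picked for high counts in CD45+ and low counts in CD45- cells, so these positions are a description and no test. Apart from miR-6983, 20 of 101 were called higher in microglia at P6, 19 at P15 and 11 at 8W, against 17.4%, 21.3% and 21.2% of all features. Between 8W and P6 in microglia 1 of the 101 was called higher and 0 lower (limma TREAT), where 7.18% and 9.42% of all features were.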

How the data were processed

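The authors counted miRNA reads per feature with miRDeep2 against miRBase after trimming with fastp 0.20.0 (GRCm38/mm10), and deposited the counts of 70 libraries as 2029 entries. The microglial and bulk library of female mouse 6 at P6 were not used, since that mouse is not among those of the study's own scaling plot. Of entries with the same name the one with the largest total was kept (1885 names), 3 candidates with identical counts were dropped, and 1882 features remained, holding 48.9 to 66.4% of the deposited counts. CPM are per total of the kept features. A filter of 1 CPM in 5 libraries left 1072. miR-6983-3p passed it with 34 microglial and 5 bulk libraries, and miR-6983-5p with 33 and 0. The main analysis took scaling, voom, the random effect of mouse and TREAT from the study's methods, while the coding as 12 group means was chosen here: TMM in edgeR 4.0.16 and voom in limma 3.58.1 under R 4.3.3, with 12 group means and mouse as a random effect, TREAT at 2-fold, and Benjamini-Hochberg over all features at 0.05. Both fractions of a mouse come from 1 brain, which pairs them; the consensus correlation within mice was 0.124. Alternatives were other scalings, filters, tools (DESeq2 1.42.0 and edgeR quasi-likelihood), blocks and each mouse left out. Arm ratios used a pseudocount of 0.5 and 100000 permutations. Mature sequences and host introns came from RefSeq and GENCODE mouse release M21 of the same build. The scripts were tested on simulated data. No 2 of 170 library pairs held identical values.

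The members, the lists of host genes and markers and the tests were chosen with earlier results of these data known. Genes named are both arms, the 5 features nearest to miR-6983-3p by root mean square difference of centred group means, and miRNAs in introns of the host list or of precursors that share intron ends. Of the marker lists, those called between ages, the most abundant neuronal marker and some uncalled markers with large age differences were named. These markers and miR-7115-5p were chosen after their values were seen. PCR duplicates were not resolved by molecular identifiers, so counting intervals cover counting error only.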

Additional observations from a re-analysis of the deposited data

Results flagged for a closer look

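Of 20 groups of 4 to 6 libraries whose single values could be tested for a distant library, 6 held one, where chance gives about 1 in 20. Of these, 5 were bulk groups with few counts. The 1 in 20 rate does not hold where all other libraries of a group are at 0, since any count then stands apart. No excess over chance can therefore be read from the 6. miR-6983-3p stood at 0.411 CPM (3 counts) in P6 female bulk library 3, at 1.81 CPM (13 counts) in P6 male bulk library 3 and at 0.833 CPM (4 counts) in 8W female bulk library 1. miR-6983-5p stood at 0.308 CPM (1 count) in P15 male bulk library 4 and at 0.212 CPM (1 count) in 8W female bulk library 2. In microglia the 5p arm of 8W female library 1 lay apart at 7.23 CPM (36 counts), above the narrow range of its group.

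The microglial library of P6 female mouse 6, not used above, held 104 counts of miR-6983-3p (19.2 CPM) and 13 of miR-6983-5p (2.4 CPM), while the bulk library of that mouse held 0 of each. Its 3p level was below the lowest of the 10 P6 microglial libraries used (31.6 CPM).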

How the results depend on the processing

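No age or sex difference was called under any alternative that kept the 2-fold threshold (limma TREAT, edgeR and DESeq2), although fitted values of the 5p arm passed 1 log2 unit under some, the highest being 1.18 for both P15 and 8W against P6 and 1.04 for the sexes at P6, each with a mouse left out. The differences of P15 and of 8W against P6 were positive for both arms under all alternatives. Those of 8W against P15 changed sign under some, as did the 3p sex difference at 8W and the age by sex difference of the 5p arm and, without single mice, the arm ratio of P15 against P6 and of 8W against P15; none of these was called. With the threshold dropped, the moderated test called 4 of the 6 age differences: 3p at 0.85 and 0.71 and 5p at 0.98 and 0.90 (P15 and 8W against P6), beside 34.1% and 53.9% of all features. Chosen after seeing the data, the same test was repeated with other scalings. With the myeloid scaling these 4 were no longer called, at 0.26, 0.29, 0.38 and 0.47. With library size alone the 8W against P6 differences were not called (0.27 for 3p, 0.44 for 5p), while those of 8W against P15 were (-0.46 and -0.41). The cause was not tested.

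The fitted microglia to bulk difference of the 5p arm, whose bulk counts are nearly all 0, depended on the tool: 6.16, 6.39 and 6.03 at P6, P15 and 8W with limma, 7.59, 7.87 and 7.68 with edgeR, and 7.75, 7.71 and 7.41 with DESeq2. With mouse as a fixed replicate block the 3p values were 7.95, 7.30 and 7.47. Leaving out the replicate block changed no call (3p P15 against P6, 0.85). The miR-342-3p call was also lost when entries of one name were summed (1.24). Seed sharing with miR-6983 was not run. The limit of depth is the 5p arm and all bulk values, where single counts decide.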
